A study of Drosophila melanogaster with 12 samples.

Results

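Plasmatocytes of larvae parasitised by a wasp were set against plasmatocytes of unwounded larvae in the single-cell RNA sequencing of *Drosophila melanogaster* blood. The cells were those that the authors' deposited annotation places in the clusters PM1 to PM12, which gave 8694 of the 19458 cells of the merged table. Of these, 3622 came from 4 unwounded libraries and 5072 from 3 libraries taken 24 hr after infestation (wasp inf. 24 hr). The unique molecular identifiers (UMIs, which tag single captured RNA molecules) of the plasmatocytes were summed per library and gene, so that the library and not the cell was the replicate.

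Plasmatocytes are the macrophage-like majority of larval hemocytes. They engulf bacteria and dying cells through receptors of the Nimrod and scavenger families, secrete much of the basement membrane of the larva, and contribute to clotting. When a parasitoid such as *Leptopilina boulardi* lays an egg in a larva, hemocytes attach to the egg, and large flat lamellocytes, in part formed from plasmatocytes, wrap and melanise it. Immune signalling in these flies runs through the Toll and Imd cascades, which switch on antimicrobial peptide genes, and through the JNK and JAK/STAT pathways, which respond to stress and to secreted cytokines.

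The unwounded larvae carried the transgenes Hml-GAL4Δ and UAS-2X EGFP in a w background (*Hml > EGFP*), in which the Hml promoter drives GFP in most hemocytes. They were staged at 96 hr after egg lay and bled 24 hr later into PBS, and their hemocytes were cleaned on an Optiprep density gradient. The infested larvae were *Oregon R*, a wild-type strain without the transgenes, exposed to *L. boulardi* strain G486 at 72 hr after egg lay and bled at 96 hr into Schneider's medium without the gradient. Larvae of both groups were pooled and vortexed with glass beads to free sessile hemocytes. Libraries unwounded 1 and 2 were made with 10X Chromium, unwounded 3 and 4 with inDrops (each sequenced in a pool with a wounded library), and all 3 wasp libraries with Drop-seq. The paper aligned 10X Chromium and inDrops reads to a FlyBase reference and Drop-seq reads to an Ensembl one. Infestation, strain, larval age, cell preparation, technology and reference therefore all differed between the groups and cannot be told apart. No library of uninfested *Oregon R* larvae or of infested *Hml > EGFP* larvae entered the comparison. Only that the libraries are separate samples is stated, so that p-values measure the spread between these libraries.

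The plasmatocytes per library numbered 641, 681, 1852 and 448 in unwounded 1 to 4, and 78, 1577 and 3417 in wasp 1 to 3. Their UMIs summed to between 561180 and 5358684 in unwounded libraries and between 1094993 and 14125253 in wasp libraries. The median plasmatocyte held 1034 to 4110 UMIs in unwounded libraries and 3528 to 12913 in wasp libraries, and the median mitochondrial share was 7.71% to 17.9% against 3.61% to 4.97%. Of 31 mitochondrially encoded genes in the merged table, 15 had UMIs in all 3 technologies, so that these shares need not cover the same genes. Plasmatocytes made up 83.4% to 91.1% of the cells of the unwounded libraries, and 43.1%, 79.8% and 85.1% of wasp 1 to 3. The clusters were filled unevenly, with PM1 holding 96.4% of the plasmatocytes of unwounded 4, PM3 holding 41.3% of those of wasp 2, and PM6 and PM7 each holding 15.4% of those of wasp 1. Cell barcodes were nearly private to a library (unwounded 3 and 4 shared 6, wasp 2 and 3 shared 1).

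The label plasmatocyte was checked against 13 marker genes, of which 11 were tested and all 11 had UMIs in every library. Their summed level, in CPM (counts of a gene scaled to the library's tested genes, after TMM normalisation), was 23300 to 43500 in unwounded libraries and 2960 to 6370 in wasp libraries. The cells of the wasp libraries thus expressed the markers, at a lower level than those of the unwounded libraries. Markers of other cells were low in both groups: 10 lamellocyte markers summed to 691 to 1330 CPM against 757 to 1440 CPM, and 6 crystal cell markers to 296 to 1060 CPM against 134 to 154 CPM. The 7 muscle markers summed to 106 to 192 CPM against 16.5 to 93.9 CPM, and Lsp1beta, the only one of 8 fat body markers that could be tested, stood at 12.9 to 69.3 CPM against 0 to 0.843 CPM. In summed UMIs, fewer cells of a type and less RNA per cell cannot be told apart.

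Genes were compared only if they had UMIs in each of the 3 technologies (8650 of 10392) and passed a filter on low counts, which left 6486. A gene near 0 in 1 group could pass this filter only through the other group, and could then be called in only 1 direction. edgeR's quasi-likelihood test with Benjamini-Hochberg adjustment called 2226 of them at an adjusted p below 0.05 (34.3%), 1025 higher (15.8%) and 1201 lower (18.5%) in the wasp libraries. In 21.4% of the tested genes all 3 wasp libraries lay above all 4 unwounded libraries, and in 20.5% all lay below. These shares are the background for each count of genes from this fit, and counts under another setting have that setting's background. Without wasp 1, 2 and 3, 871, 578 and 559 genes were higher and 908, 592 and 550 lower, of 6873, 6538 and 6540. Without unwounded 1, 2, 3 and 4, 931, 1154, 759 and 923 were higher and 1073, 1236, 960 and 1088 lower. Those fits tested 6503, 6312, 6027 and 6477 genes. In the first fit the median log2 difference of all tested genes was -0.03. With upper-quartile scaling, which moved that median by a further -0.215, 747 genes were higher and 1534 lower, and no gene called in the first fit changed sign. With the 2 10X Chromium libraries alone as the reference, and again with the 2 inDrops libraries alone, 707 of the higher and 699 of the lower genes kept their call. The 2 unwounded technologies themselves differed by more than 1 on the log2 scale in 22.3% of the tested genes, in 17.6% of the genes called higher and in 22.0% of those called lower. The count of calls fell to 1779 without wasp 1, to 1170 without wasp 2 and to 1109 without wasp 3, and the cause was not tested.

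Antimicrobial peptides, small secreted proteins that kill bacteria and fungi, were higher in the wasp libraries in 9 of 11 tested genes and called lower in none, with a median log2 difference of 7.33 (7.31 when AttA, which had no UMI in unwounded plasmatocytes, is set at its lower bound). CecA1, CecA2, CecB, AttA, AttD and Dro were near 0 in unwounded libraries and passed the low-count filter only through the wasp libraries. No lower call was possible for them, so that the count and the median rest in part on the filter. The cecropins, which disrupt bacterial membranes, were all among the 9. CecC (3R:30216484-30216938, plus strand) was read at 5.37, 3.09, 10.1 and 2.12 CPM in unwounded 1 to 4 and at 571, 2089 and 178 CPM in wasp 1 to 3. Every wasp library lay above every unwounded library, and the difference was 161-fold (log2 7.33 ± 0.87 SE, adjusted p = 0.000232). CecA2, its neighbour at 3R:30212156-30212568, had 2 UMIs in all unwounded libraries, and its level was 527, 2189 and 153 CPM in the wasp libraries. The ratio of the pooled UMIs was 3760, with a 95% counting interval of 1040 to 31100. CecB at 3R:30213315-30213797 also had 2 unwounded UMIs, and 224, 560 and 63.4 CPM in wasp 1 to 3 (ratio 1040, interval 286 to 8550). CecA1 had 5 unwounded UMIs and stood at 265, 1012 and 59.9 CPM in the wasp libraries. In each of these cecropins wasp 2 was highest and wasp 3 lowest.

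The attacins and Drosocin, active mainly on Gram-negative bacteria, were higher as well. AttA (2R:14747362-14748215) had no UMI in unwounded plasmatocytes and 177, 112 and 13.8 CPM in wasp 1 to 3, which is at least 158-fold higher against a floor of 3 counts over the unwounded group. AttD was at 0 to 0.842 CPM in unwounded libraries and at 50.6, 47.1 and 7.43 CPM in wasp libraries. Dro (2R:14745961-14746714) had 2 unwounded UMIs and 462, 491 and 135 CPM in the wasp libraries, with a pooled ratio of 1140 (interval 315 to 9390). AttB was at 0 CPM in both 10X Chromium libraries, at 4 and 17 CPM in the inDrops libraries, and at 134, 187 and 29.4 CPM in the wasp libraries, without overlap. AttA and AttB, and the cecropins among themselves, are close copies, so that the split of reads between them is uncertain. Counting intervals cover counting error only.

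The antifungal peptides differed between themselves. Drs (Drosomycin, an antifungal peptide at 3L:3369556-3369942) stood at 4.3, 8.71, 13.7 and 2.12 CPM in unwounded libraries and at 32, 192 and 22.7 CPM in wasp libraries, a 9.66-fold difference (log2 3.27 ± 0.74 SE, adjusted p = 0.0068) that was no longer called without wasp 2. Mtk (Metchnikowin, also antifungal) was at 69.9, 161, 99.8 and 21.2 CPM in unwounded and 48.9, 14.7 and 1.53 CPM in wasp libraries, and its groups overlapped (log2 -2.21 ± 0.92 SE, adjusted p = 0.0839). Mtk was called lower in 5 alternatives, among them those with PM6 and PM7 left out and with PM1 alone. The cells of the 4 wounded libraries, from *Hml > EGFP* larvae pricked with a needle and run on the same 2 technologies as the unwounded ones, held Drs at 771 to 1812 CPM and Mtk at 583 to 4145 CPM, both above every wasp library. CecC in those libraries stood at 29.7 to 391 CPM and AttD at 11.1 to 125 CPM, which overlapped the wasp libraries, while CecA2 at 1.26 to 6.36 CPM and Dro at 0.482 to 15.2 CPM lay below them (CPM of wounded libraries carry no TMM factor, and these values were not tested).

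**Figure D1:**
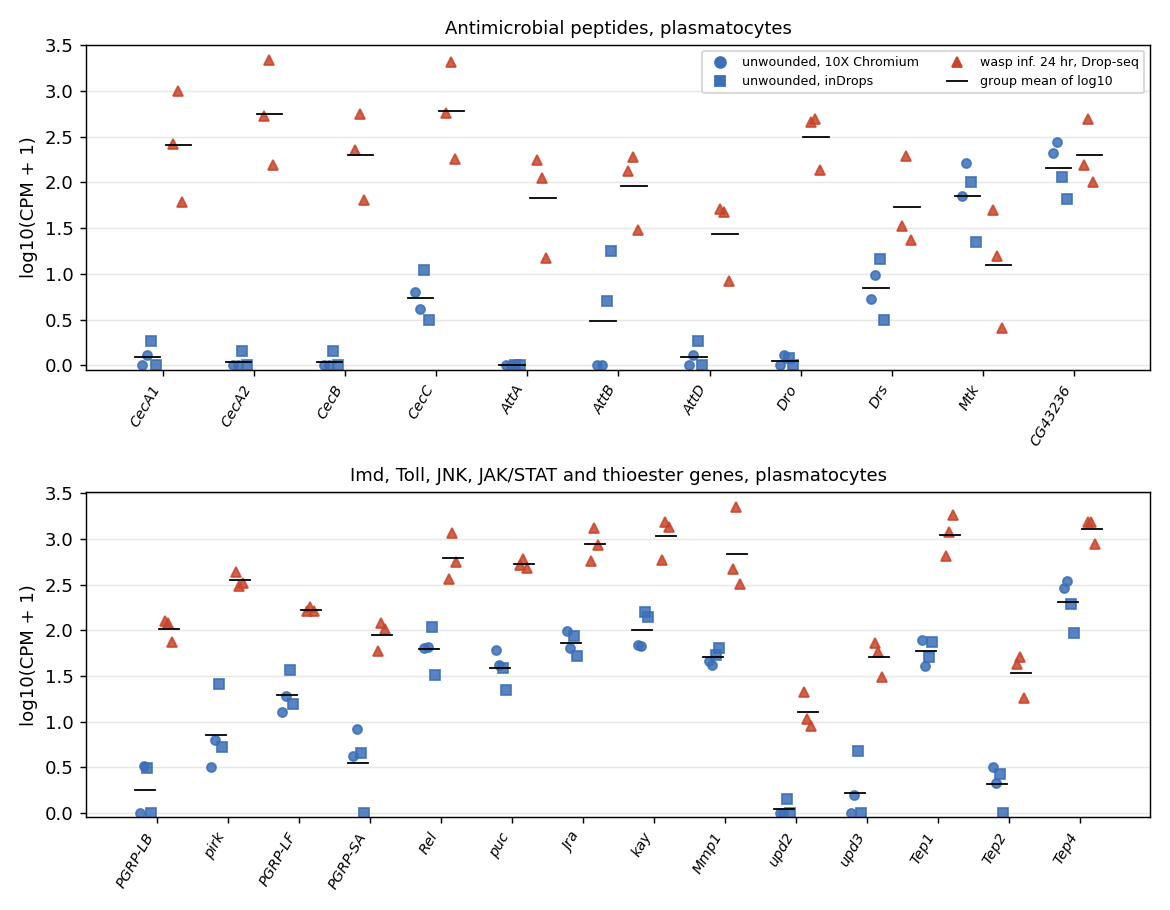
Levels of antimicrobial peptide genes and of genes of the Imd, Toll, JNK and JAK/STAT pathways and thioester proteins in plasmatocytes, 1 point per library (unwounded 1 to 4, wasp inf. 24 hr 1 to 3), on a log axis of CPM plus 1. CecC stands at 2.12 to 10.1 CPM in the unwounded and at 178 to 2089 CPM in the wasp libraries, while the Mtk points of the groups overlap.

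Antimicrobial peptide UMIs were not spread evenly over the plasmatocyte clusters. In wasp 1, PM6 and PM7 held 36.1% and 37.9% of the UMIs of the 9 called peptides, against 21.3% and 17.4% of all plasmatocyte UMIs. In wasp 2, PM7 held 32.5% of the peptide UMIs against 14.5% of all UMIs, while PM6 with 26.4% against 23.5% and PM3 with 32.3% against 38.7% lay near their share of all UMIs. In wasp 3, PM6 and PM7 held 3.45% and 4.75% against 0.683% and 0.684% of all UMIs, PM3 8.18% against 2.27%, and PM1 28.0% against 37.1%. Unwounded libraries had at most 3 PM6 cells, so that levels within PM6 could not be compared between the groups. With PM6 and PM7 left out, the same 9 peptides were called higher, with a median log2 difference of 6.75 over the 11 genes. Within PM1 alone 7 peptides could be tested and 5 were higher.

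The Imd cascade, which senses bacterial peptidoglycan and ends in the NF-kappaB factor Relish, had 5 of 16 tested genes higher and 1 lower, with a median log2 difference of 0.22. The genes that moved were mostly its own negative regulators and its transcription factor. PGRP-LB, an enzyme that destroys peptidoglycan, was at 0, 2.25, 2.11 and 0 CPM in unwounded and at 127, 119 and 73.2 CPM in wasp libraries, without overlap (61.4-fold, log2 5.94 ± 0.52 SE, adjusted p = 3.63e-05). pirk, an inhibitor that pulls the receptors from the membrane, stood at 2.15, 5.34, 24.6 and 4.24 CPM against 436, 305 and 330 CPM (33.2-fold, log2 5.05 ± 0.63 SE, adjusted p = 0.000308). The decoy receptor PGRP-LF was 7.85-fold higher, at 11.8 to 36 CPM against 161 to 178 CPM. Rel itself was at 63.4, 64.4, 108 and 31.8 CPM in unwounded and at 366, 1152 and 562 CPM in wasp libraries (10.2-fold, log2 3.35 ± 0.48 SE, adjusted p = 0.000638). Rel overlaps Nmdmc on the same strand, whose reads may be counted with it. All 4 of these genes separated the groups. The adaptor imd ran the other way, at 353, 150, 82.9 and 57.2 CPM against 33.7, 61.8 and 54.5 CPM, with overlap between unwounded 4 and wasp 2, and its call (adjusted p = 0.0397) was lost in 7 alternatives, including inDrops libraries alone as the reference and each removal of a wasp library.

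The Toll cascade, which answers fungi and Gram-positive bacteria and also acts in hemocyte proliferation, had 6 of 14 tested genes higher and 2 lower (median log2 difference 1.07), but only 2 higher without wasp 2 and 2 without wasp 3. The recognition protein PGRP-SA stood at 3.22, 7.31, 3.58 and 0 CPM in unwounded libraries and at 58.1, 118 and 102 CPM in wasp libraries (21.1-fold, log2 4.40 ± 0.50 SE, adjusted p = 0.00018). The protease grass was 4.94-fold higher, at 0 to 10.7 CPM against 30.1 to 39.7 CPM, and the protease modSP, which acts just above grass, was 14.7-fold lower, at 18.3 to 29.7 CPM against 0.705 to 2.53 CPM. Both separated the groups and kept their calls in every alternative that could be fitted. The factors dl, Dif and the adaptor Myd88 were called higher at 2.76-, 2.16- and 2.21-fold, and each lost its call in 7 or 8 of 20 alternatives. The receptor Tl (46.1 to 76.3 CPM against 73.8 to 81.5 CPM) and the ligand spz (697 to 1009 CPM against 507 to 896 CPM) overlapped between the groups and were not called.

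JNK signalling, a stress kinase pathway that acts in wound closure and lamellocyte formation, had 4 genes higher and 2 lower of 11 tested together with the TNF branch (0 lower without unwounded 1 or unwounded 3). The 4 were the AP-1 factors and the targets of the pathway. puc, the phosphatase that feeds back on JNK (3R:8105332-8122294), was at 60.2, 41, 37.7 and 21.2 CPM in unwounded and at 514, 609 and 476 CPM in wasp libraries (13.1-fold, log2 3.72 ± 0.36 SE, adjusted p = 7.64e-05). Jra, the fly Jun, stood at 97.8, 63.3, 85.7 and 50.9 CPM against 580, 1339 and 857 CPM (12.4-fold, log2 3.63 ± 0.39 SE, adjusted p = 0.000141). kay, the fly Fos, stood at 68.8, 66.1, 157 and 140 CPM against 590, 1523 and 1363 CPM (10.8-fold, log2 3.43 ± 0.46 SE, adjusted p = 0.000448). Mmp1, a secreted matrix metalloproteinase, was at 45.1, 40.5, 52.6 and 63.6 CPM against 472, 2221 and 318 CPM (20.1-fold, log2 4.33 ± 0.63 SE, adjusted p = 0.000653). In all 4 genes the groups were separated and no alternative ended the call. The kinases bsk (59.6 to 128 CPM against 72.1 to 93.3 CPM) and hep (82.4 to 143 CPM against 75.2 to 90.6 CPM) and the TNF ligand egr (4.24 to 29 CPM against 4.23 to 24.4 CPM) overlapped and were not called. The adaptor Traf4 was lower, at 2.12 to 11.8 CPM against 0 to 0.588 CPM, and Mmp2 was lower at 15.5 to 35.5 CPM against 3.47 to 14.9 CPM with a call that 11 of 20 alternatives ended.

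Immediate early genes are induced within minutes by many stimuli. Of the 7 tested genes of a list of them and of related regulators, 5 were higher, namely puc, Jra, kay, vri and Irbp18. Here puc, Jra and kay are the JNK genes described above, counted again. vri, a bZIP repressor, was at 0 to 10.5 CPM in unwounded and at 27.8, 56.2 and 40 CPM in wasp libraries. CrebA and Atf3 were not called.

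JAK/STAT signalling in hemocytes and muscle is turned on by the cytokines of the unpaired family during wasp parasitism. Both measured ligands were called higher. They were near 0 in unwounded libraries and passed the low-count filter only through the wasp libraries, so that no lower call was possible for them. upd3 was at 0, 0.562, 3.79 and 0 CPM in unwounded and at 72.5, 56.6 and 29.6 CPM in wasp libraries (28.5-fold, log2 4.83 ± 0.66 SE, adjusted p = 0.000485). upd2 had 2 UMIs in all unwounded plasmatocytes and stood at 20.2, 9.76 and 8.07 CPM in the wasp libraries (pooled ratio 36.9, interval 10.1 to 306). The wounded libraries held upd3 at 0.724 to 6.85 CPM and upd2 at 0 to 0.482 CPM. The receptor dome (5.26 to 17 CPM against 2.35 to 5.06 CPM) and the factor Stat92E (191 to 326 CPM against 139 to 216 CPM) were not called, nor was the target and inhibitor Socs36E (2.12 to 21.1 CPM against 18.9 to 64.9 CPM). The kinase hop was called lower (21.9 to 76.3 CPM against 11.8 to 17.9 CPM, adjusted p = 0.0259), a call lost on leaving out any 1 of the wasp libraries. Over the 12 tested genes 2 were higher and 3 lower, beside 15.8% and 18.5% of all tested genes. The lower count fell to 0 without any 1 of the wasp libraries.

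Thioester-containing proteins, relatives of vertebrate complement that bind to microbes, were higher in 3 of 4 tested genes (median log2 difference 3.43). Tep1 (2L:15888640-15893811) was at 77.4, 40.2, 49.9 and 74.2 CPM in unwounded and at 644, 1200 and 1814 CPM in wasp libraries (20.5-fold, log2 4.36 ± 0.44 SE, adjusted p = 8.35e-05). Tep2 stood at 0 to 2.15 CPM against 42.1, 49.6 and 17.3 CPM (24.9-fold), and Tep4 at 291, 345, 192 and 93.2 CPM against 1538, 1524 and 884 CPM (5.67-fold, adjusted p = 0.00184). The groups were separated in all 3 genes. Of the Tep1 UMIs, PM7 held 36.0% in wasp 1, PM3 held 56.7% in wasp 2 and PM1 held 43.2% in wasp 3, where these clusters held 17.4%, 38.7% and 37.1% of all plasmatocyte UMIs. The fourth member, Mcr, was not called.

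The genes with the widest gap, the log2 distance between the nearest libraries of the groups, were taken by a rule that kept 15 called genes per direction. It passed only genes with at least 10 UMIs in each technology and with 10X Chromium and inDrops unwounded levels within 1 log2 unit of each other, which left out CecA1, CecA2, CecB and Dro although their gaps were wider. Since the rule selects on the same contrast, their values are given as a description. The widest gap upward among the genes that passed was that of CG3348 (3R:27291535-27292209), at 5.37, 19.1, 10.9 and 19.1 CPM in unwounded and at 901, 868 and 645 CPM in wasp libraries, a 59.4-fold difference. CG30283 (2R:21539584-21540573) rose from between 3.22 and 8.71 CPM to 297, 425 and 564 CPM, 65.1-fold. CG30283 lies within Egfr on the opposite strand, and Egfr, the epidermal growth factor receptor, itself stood at 0 to 2.12 CPM against 5.06, 11.1 and 4.2 CPM (3 unwounded UMIs, pooled ratio 18, interval 6.06 to 88.4). lectin-24A, a C-type lectin (2L:3716800-3717773), was at 5.37, 16.3, 8.84 and 8.48 CPM against 345, 309 and 766 CPM, 45.6-fold. CG8157 (2R:15325503-15326386) was the most abundant of the 15, at 363, 1966, 705 and 1428 CPM in unwounded and at 25056, 31654 and 37762 CPM in wasp libraries, a mean of 31500 ± 6350 CPM (SD, n = 3) and 28.2-fold higher. CG42394 was the second most abundant, at 176 to 451 CPM against 3947, 8534 and 6795 CPM (23.2-fold).

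Others of the 15 have known products. LamC, the A-type lamin of the nuclear envelope (2R:14570810-14575771), was at 40.8, 29, 46.1 and 31.8 CPM in unwounded and at 494, 852 and 584 CPM in wasp libraries, 17.3-fold. mthl6, a receptor of the methuselah family, was at 4.24 to 12.9 CPM against 265 to 317 CPM. stv, a BAG-domain co-chaperone, was at 0 to 3.37 CPM against 59.9 to 114 CPM, and jtb, a homolog of a human tumour breakpoint gene, at 1.07 to 3.37 CPM against 90.8 to 157 CPM. CG4793, CG30090 and CG30148 were at 0.843 to 14.1 CPM in every unwounded library and at 39.6 to 456 CPM in every wasp library. In the wounded libraries CG3348 stood at 9.53 to 54 CPM, CG8157 at 789 to 1612 CPM, LamC at 43.5 to 73.8 CPM and lectin-24A at 20.6 to 29.4 CPM, all below the lowest wasp value. CecC, Tep1 and puc, described above, complete the 15.

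**Figure D2:**
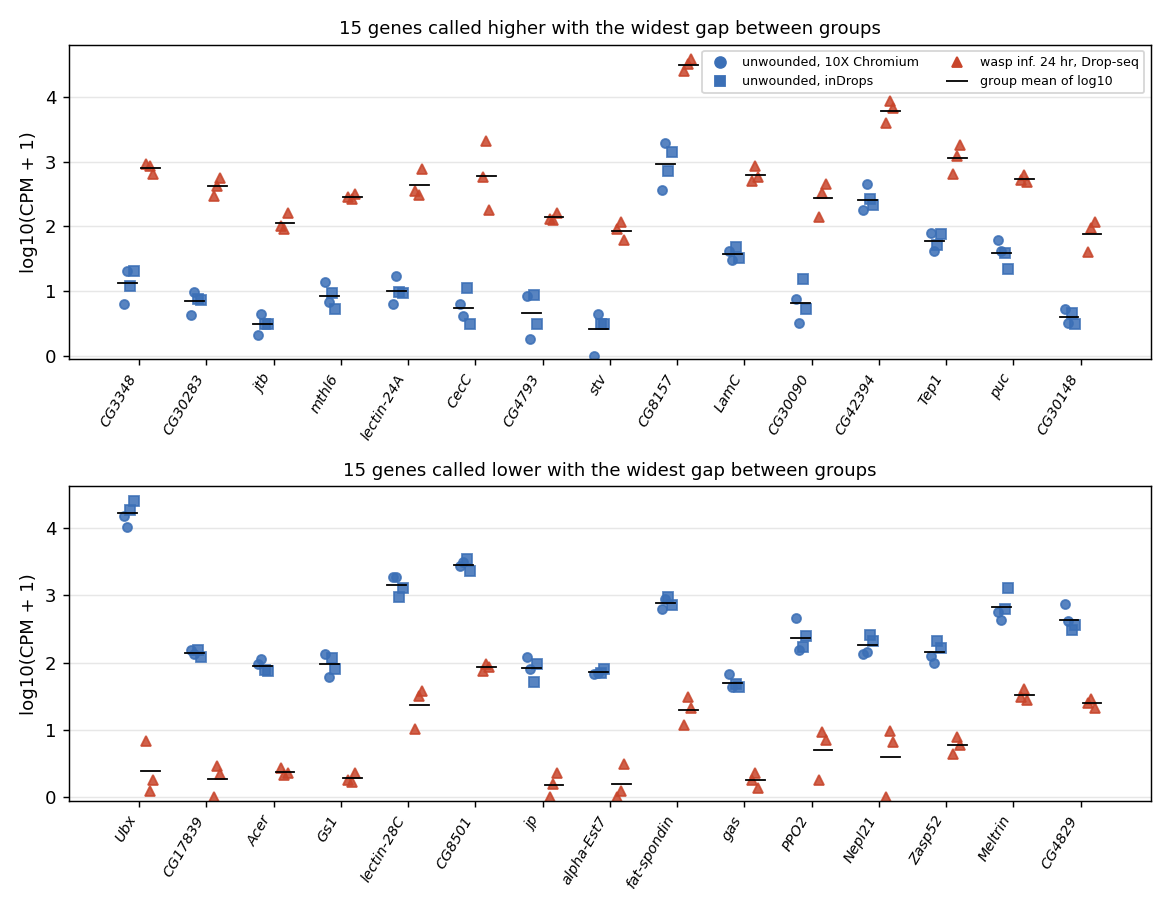
The 15 genes per direction with the widest gap between the groups, 1 point per library on a log axis of CPM plus 1. CG8157 runs from 363 to 1966 CPM in unwounded libraries and from 25056 to 37762 CPM in wasp libraries, and Ubx runs from 10114 to 24558 CPM in unwounded libraries and from 0.235 to 5.9 CPM in wasp libraries.

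Downward, Ubx stood apart. This Hox gene, which sets the identity of the third thoracic and first abdominal segments (3R:16656623-16734426), was at 14919, 10114, 18501 and 24558 CPM in unwounded 1 to 4 and at 5.9, 0.235 and 0.807 CPM in wasp 1 to 3, from 149329 and 19 UMIs. The 4 wounded libraries held 13484, 13107, 15405 and 9742 CPM. Counts assigned to Ubx were therefore among the highest in all *Hml > EGFP* libraries, wounded or not, and near 0 in the 3 wasp libraries from *Oregon R*. Infestation, strain, larval age, cell preparation, technology and reference cannot be told apart here. The log2 difference was -13.73, and it ran from -13.9 to -12.6 over PM1 to PM5.

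The other genes of the lower rule are given by their values. CG17839 fell from 121 to 154 CPM to at most 1.88 CPM, and Acer, a relative of angiotensin-converting enzyme, from 74.2 to 113 CPM to 1.18 to 1.69 CPM. Gs1, a glutamine synthetase, stood at 60.7 to 131 CPM against 0.705 to 1.29 CPM, with ND-15 overlapping it on the same strand. lectin-28C, a C-type lectin, was at 1853, 1849, 920 and 1257 CPM in unwounded and at 9.27, 31.2 and 37.1 CPM in wasp libraries, 55-fold lower. CG8501 was at 2663, 3042, 3433 and 2271 CPM against 74.1, 95.2 and 83.8 CPM, 33.7-fold lower. fat-spondin, a matrix protein, was at 629, 860, 919 and 701 CPM against 11, 29.4 and 20.2 CPM, 37.4-fold lower. Meltrin, a membrane metalloproteinase, was at 433 to 1250 CPM against 26.8 to 39.5 CPM, Nepl21, a neprilysin-like peptidase, at 135 to 251 CPM against 0 to 8.82 CPM, and Zasp52, a scaffold of integrin adhesions and muscle Z-discs, at 98.7 to 207 CPM against 3.37 to 6.94 CPM. jp, alpha-Est7, gas and CG4829 were 94.1-, 60.7-, 58.9- and 18.6-fold lower. The wounded libraries resembled the unwounded ones in level for lectin-28C (991 to 2630 CPM), CG8501 (2580 to 4092 CPM) and fat-spondin (598 to 968 CPM).

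Markers by which plasmatocytes are recognised were lower in 8 of 11 tested genes and higher in 1, with a median log2 difference of -2.51. This list shares members with lists below, so that their counts overlap. Ppn and vkg are also basement membrane genes, Hml is also a clotting gene, and eater, Sr-CI, drpr and crq are also among the receptors. Hml (hemolectin, a clotting factor whose promoter drives the GAL4 transgene, 3L:13846054-13860001) stood at 6618, 8338, 6280 and 5980 CPM in unwounded and at 618, 1683 and 1075 CPM in wasp libraries, 6.04-fold lower (log2 -2.60 ± 0.42 SE, adjusted p = 0.00114). Pxn, a peroxidase that crosslinks the basement membrane, stood at 4236, 5338, 5251 and 3812 CPM against 134, 397 and 285 CPM, 17.1-fold lower (log2 -4.09 ± 0.46 SE, adjusted p = 0.000175). The groups were separated in both. He (hemese, a surface glycoprotein of all hemocytes) ran the other way, at 373, 754, 497 and 326 CPM against 1388, 1931 and 2359 CPM, 3.87-fold higher (log2 1.95 ± 0.37 SE, adjusted p = 0.00289). The phagocytic receptor NimC1 (50.9 to 129 CPM against 31.2 to 154 CPM) and the GATA factor srp (158 to 357 CPM against 111 to 296 CPM) overlapped and were not called.

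Among the Nimrod and scavenger receptors, 8 of 16 tested genes were lower and 2 higher (median log2 difference -1.38), and 5 were lower without wasp 2 or without wasp 3. eater, a receptor for bacteria, stood at 518, 776, 533 and 496 CPM in unwounded and at 85.9, 194 and 156 CPM in wasp libraries, 3.98-fold lower (log2 -1.99 ± 0.37 SE, adjusted p = 0.00245). drpr, the engulfment receptor Draper, stood at 383, 184, 166 and 138 CPM against 11, 34.7 and 23.4 CPM, 9.16-fold lower. Sr-CI, a scavenger receptor, was 5.68-fold lower at 803 to 1920 CPM against 76.7 to 419 CPM, while its neighbour Sr-CIII was 9.22-fold higher at 7.79 to 13.2 CPM against 80.1 to 109 CPM. The secreted members of the Nimrod cluster also moved in both directions. NimB1 was 4.29-fold higher (46.6 to 127 CPM against 355 to 433 CPM), and NimB2 and NimB3 were 8.84-fold and 16.5-fold lower (48.4 to 86.5 CPM against 5.88 to 8.43 CPM, and 93.2 to 161 CPM against 1.61 to 27.8 CPM). NimB1 and NimB2 overlap at their ends on opposite strands. crq was called lower at 19.7 to 37.7 CPM against 5.9 to 18 CPM, a call that 11 of 20 alternatives ended. NimC4, a receptor for dying cells, had 33 UMIs in the unwounded and 1 in the wasp plasmatocytes.

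**Figure D3:**
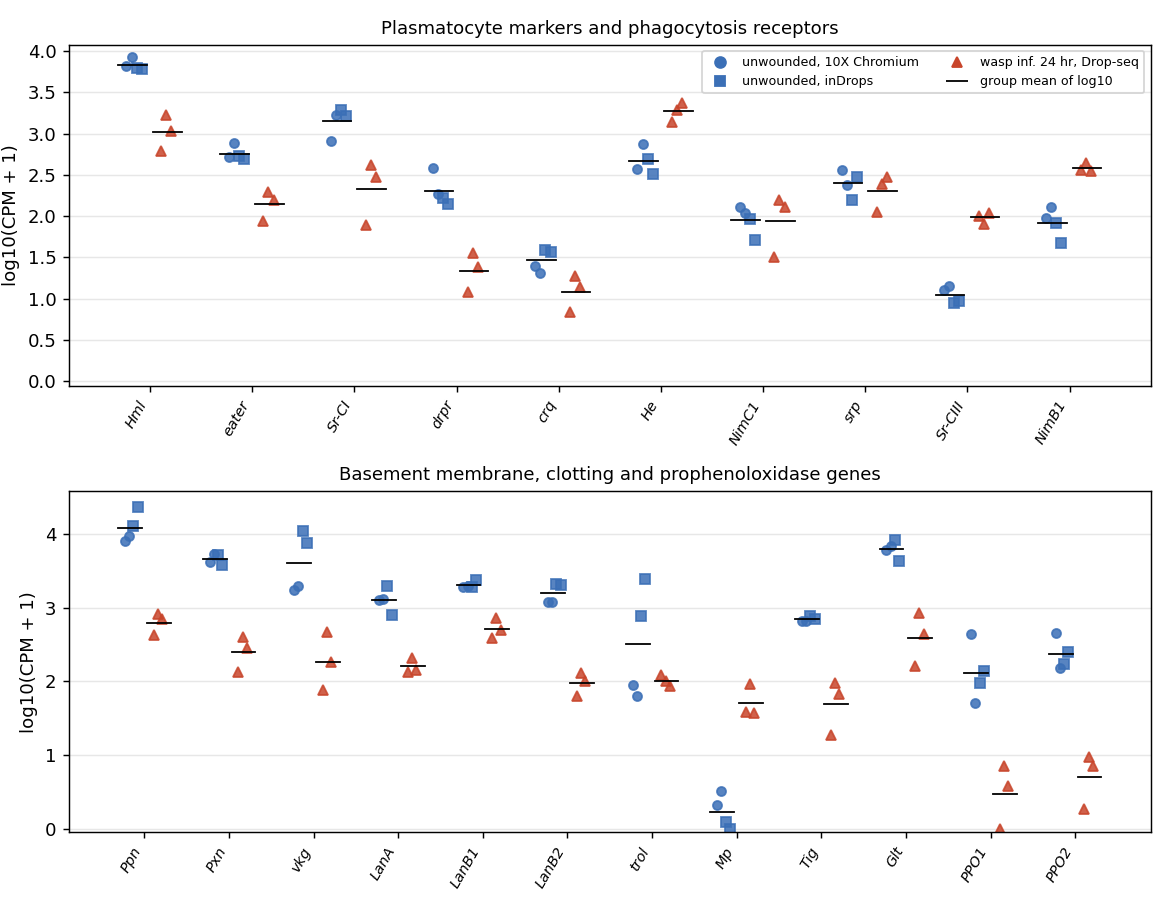
Levels of plasmatocyte markers and receptors and of genes of the basement membrane, clotting and prophenoloxidase, 1 point per library on a log axis of CPM plus 1. Ppn stands at 8099 to 23215 CPM in the unwounded and at 420 to 830 CPM in the wasp libraries, whereas Mp and Sr-CIII lie higher in the wasp libraries.

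The basement membrane, the sheet of laminin, collagen IV and proteoglycan that covers larval organs, had 9 of 11 tested genes lower and 1 higher (median log2 difference -3.06). In 7 of the 11 all wasp libraries lay below all unwounded libraries. Without wasp 1, 2 and 3, 6 of 11, 7 of 11 and 7 of 10 tested genes were lower. Ppn (papilin) stood at 8099, 9347, 13099 and 23215 CPM in unwounded and at 420, 830 and 715 CPM in wasp libraries, 20.5-fold lower (log2 -4.36 ± 0.52 SE, adjusted p = 0.00025). The laminin chain LanB2 was at 1195, 1196, 2107 and 2032 CPM against 63.2, 131 and 99.5 CPM, 16.6-fold lower (log2 -4.05 ± 0.43 SE, adjusted p = 0.000141). LanA and LanB1 were 8.37-fold and 3.8-fold lower, at 790 to 2010 CPM against 133 to 210 CPM and at 1889 to 2369 CPM against 393 to 720 CPM. All 3 chains of the laminin trimer separated the groups. vkg, a collagen IV chain, stood at 1722, 1969, 10982 and 7535 CPM against 75, 463 and 182 CPM, with the inDrops libraries above the 10X Chromium ones, and the 23.1-fold difference was called with either technology as the reference. trol (perlecan) differed between the unwounded libraries themselves. It stood at 89.2 and 63 CPM in the 10X Chromium libraries, at 778 and 2437 CPM in the inDrops libraries and at 84.5 to 120 CPM in the wasp libraries. Its call (log2 -3.04, adjusted p = 0.0486) turned to a log2 difference of 0.46 (adjusted p = 0.272) against 10X Chromium alone. The collagen XV/XVIII gene Mp was higher, at 0 to 2.25 CPM against 37.9, 90.3 and 35.9 CPM (51.3-fold, log2 5.68 ± 0.66 SE, adjusted p = 0.000216).

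Clotting proteins were lower in 5 of 7 tested genes and higher in none (median log2 difference -3.52). Tig (tiggrin, an integrin ligand) stood at 669, 662, 767 and 695 CPM in unwounded and at 17.7, 95.5 and 66.6 CPM in wasp libraries, 11.5-fold lower (log2 -3.52 ± 0.51 SE, adjusted p = 0.000679). Glt (glutactin) stood at 6070, 6880, 8245 and 4388 CPM against 163, 848 and 438 CPM, 13.2-fold lower (log2 -3.72 ± 0.57 SE, adjusted p = 0.000867). Hml, Sp212 and Lsp1beta were the other 3. Lsp1beta is a storage protein made by the fat body, so that its level may also track fat body RNA, whose part was not tested.

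The prophenoloxidases, copper enzymes of melanisation made chiefly by crystal cells, were lower, and the list of their cascade had 3 of 7 tested genes lower and none higher. PPO1 (2R:17887220-17889973) was at 446, 50, 93.3 and 136 CPM in unwounded and at 0, 6 and 2.83 CPM in wasp libraries (49.9-fold lower, log2 -5.64 ± 0.92 SE, adjusted p = 0.00129). PPO2 (2R:9042261-9044709), one of the 15 genes with the widest gap downward, was at 458, 150, 171 and 250 CPM against 0.843, 8.46 and 6.14 CPM. The groups were separated in both genes. The whole crystal cell marker list summed to 296 to 1060 CPM against 134 to 154 CPM, PPO1 and PPO2 being the 2 of its 6 tested genes that were called and the defining factor lz not having passed the filter, and the part of crystal cell RNA in the result was not tested. PPO3, the prophenoloxidase of lamellocytes, stood at 3.09 to 8.48 CPM against 32, 2.94 and 9.37 CPM and was not called.

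Transcription factors of hemocyte development moved both ways, 4 of 11 tested genes being higher and 4 lower. kn (collier, required in the lymph gland for the niche and for lamellocyte formation) had 4 UMIs in unwounded 3 and none in the other unwounded libraries, and stood at 67.4, 12.3 and 14.5 CPM in wasp 1 to 3 (70.6-fold, log2 6.14 ± 0.96 SE, adjusted p = 0.00101). Wasp 1, the highest, was also the library with the lowest share of plasmatocytes (43.1%). The GATA cofactor ush was 9.05-fold lower at 113 to 365 CPM against 17.4 to 25.3 CPM, and the forkhead factor jumu 7.38-fold lower at 51.7 to 180 CPM against 9.76 to 21.9 CPM. Rel, kay and cnc were the other higher members, and Ubx and pnr the other lower ones.

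Of 9 tested ligands, receptors and factors of receptor tyrosine kinase signalling, 4 were higher (Pvf2, rho, InR and Egfr) and 2 lower (Pvr and pnt), with 2 higher without wasp 2 or without unwounded 3. Egfr passed the low-count filter only through the wasp libraries, so that no lower call was possible for it. Pvf2, a ligand of the PDGF/VEGF receptor, was at 6.45, 11, 21.3 and 19.1 CPM in unwounded and at 75, 76.2 and 46.7 CPM in wasp libraries (4.52-fold higher, log2 2.17 ± 0.40 SE, adjusted p = 0.00229). Its receptor Pvr stood at 308, 265, 201 and 189 CPM against 76.7, 67.8 and 74.9 CPM (3.3-fold lower, log2 -1.72 ± 0.30 SE, adjusted p = 0.00177). rho, the protease that releases EGF ligands, was 14.4-fold higher at 0 to 5.05 CPM against 25.4 to 50.6 CPM, and the Ets factor pnt 2.94-fold lower at 302 to 393 CPM against 96.1 to 139 CPM. In the Notch pathway 5 of 11 tested genes were lower and 1 higher, the lower count falling to 2 without any 1 of the wasp libraries or unwounded 1 and rising to 8 with upper-quartile scaling. The receptor N was 3.43-fold lower (238 to 373 CPM against 64 to 103 CPM) and its ligand Ser, which marks the lineage switch to crystal cells, 6.05-fold lower (40.3 to 76.3 CPM against 4.11 to 13.5 CPM).

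Lamellocyte markers within the plasmatocyte clusters were few and low, 3 of 10 tested genes being higher and 1 lower. atilla (the L1 antigen, 2L:12175451-12177886) stood at 0, 1.12, 0.632 and 2.12 CPM in unwounded and at 65.7, 19.5 and 140 CPM in wasp libraries (87.8-fold, log2 6.46 ± 0.79 SE, adjusted p = 0.00028). Tret1-1, a trehalose transporter, stood at 0.843 to 4.24 CPM against 13.6 to 32.9 CPM, and betaTub60D, a beta tubulin, at 2.12 to 7.16 CPM against 13.8 to 37.6 CPM. alphaTub85E ran the other way, at 38.5 to 133 CPM against 8.43 to 32.1 CPM, a call lost without wasp 2 and against 10X Chromium alone. msn, whose enhancer is a common lamellocyte reporter, overlapped between the groups (78.7 to 239 CPM against 91 to 142 CPM). Among 15 tested integrin and adhesion genes 4 were higher and 1 lower, and 2 were higher without wasp 2. The alpha integrin scb had 3 unwounded UMIs and 6.74, 11.4 and 8.07 CPM in wasp libraries (pooled ratio 24.3, interval 8.21 to 119). It passed the low-count filter only through the wasp libraries, so that no lower call was possible for it. Fas3, a homophilic adhesion protein, was 10.6-fold higher at 1.07 to 4.24 CPM against 13.5 to 23.3 CPM.

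Redox genes were raised in part. Of 21 tested glutathione and oxidative stress genes 9 were higher and 4 lower, and of 25 tested glutathione S-transferases 11 were higher and 4 lower (6 higher without wasp 3, 2 lower without unwounded 3). Keap1, the sensor that holds back the antioxidant factor cnc, stood at 11.8, 2.53, 5.89 and 0 CPM in unwounded and at 81.7, 176 and 66 CPM in wasp libraries (20.8-fold, log2 4.38 ± 0.61 SE, adjusted p = 0.000556). Gclc, the first enzyme of glutathione synthesis, was 7.78-fold higher at 23.6 to 55.1 CPM against 172 to 426 CPM. GstD1 and GstE6 were 3.04-fold and 3.24-fold higher, calls that were lost without wasp 3, and cnc 2.27-fold higher, a call lost in 8 of 20 alternatives. The peroxiredoxins Prx2540-1 and CG12896 were 10-fold and 11.4-fold lower and their neighbour Prx2540-2 was not called, but the 3 are near-identical copies and their reads cannot be assigned with confidence. Of the genes of iron storage and transport, 3 of 8 were lower and none higher, with the ferritin chain Fer2LCH 3.45-fold lower (755 to 1597 CPM against 282 to 407 CPM), overlapping Fer1HCH on the opposite strand.

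Heat shock genes were lower in 8 of 13 tested genes (4 without wasp 2, 3 without wasp 3) and higher in 1, stv. Hsp68 stood at 263, 260, 332 and 33.9 CPM in unwounded and at 1.69, 2.47 and 4.93 CPM in wasp libraries (66.1-fold lower, log2 -6.05 ± 0.77 SE, adjusted p = 0.000341). Hsp23 stood at 672, 409, 645 and 44.5 CPM against 20.2, 11.1 and 27.9 CPM (22.5-fold lower). Unwounded 4 was the lowest of its group in both. The wounded libraries held Hsp68 at 56.7 to 530 CPM. The Hsp70 copies are near-identical, so that the split of reads between them is uncertain.

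Genes of cell division were lower in 15 of 28 tested genes and higher in 1, with a median log2 difference of -0.99. stg, the Cdc25 phosphatase that starts mitosis, stood at 308, 253, 516 and 634 CPM in unwounded and at 73.3, 60.7 and 104 CPM in wasp libraries (5.36-fold lower, log2 -2.42 ± 0.41 SE, adjusted p = 0.00158). CycB, the mitotic cyclin, stood at 98.9, 67.5, 164 and 195 CPM against 27.8, 26.3 and 25.3 CPM (4.92-fold lower, log2 -2.30 ± 0.40 SE, adjusted p = 0.00175). scra (anillin, of the cleavage furrow) was 7.52-fold lower at 117 to 390 CPM against 27.3 to 29 CPM, and RnrS, a ribonucleotide reductase subunit, 2.84-fold lower at 112 to 190 CPM against 46.4 to 56.8 CPM. The groups were separated in these 4 genes. polo was called lower and Cdk1 higher (35.5 to 70.3 CPM against 74.4 to 112 CPM), but 11 of 20 alternatives ended each call. Without wasp 2, and again without wasp 3, 6 of the 28 genes were lower.

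Several lists of translation, respiration and protein turnover had members higher and few or none lower. Cytosolic ribosomal proteins were higher in 23 of 84 tested genes (median log2 difference 0.70), mitochondrial ribosomal proteins in 42 of 72 (1.12), nuclear-encoded respiratory chain subunits in 19 of 38 (0.97) and proteasome subunits in 10 of 32 (0.69), with 1 proteasome gene lower and none in the other families. The other tested members were not called, and of 15 tested mitochondrially encoded genes 1 was higher and 1 lower. Without wasp 2 these 4 counts were 5, 26, 8 and 2, and without wasp 3 they were 4, 18, 6 and 0. Over all tested genes 578 of 6538 and 559 of 6540 were higher in those fits, a larger share than in cytosolic ribosomal proteins and proteasome subunits. In PM1 alone the 4 counts were 8 of 82, 31 of 72, 16 of 38 and 2 of 31, against 564 of 4307 over all genes. The respiratory chain count was 29 without unwounded 2, and the proteasome count was 6, 6 and 5 without unwounded 1, 3 and 4. With upper-quartile scaling they were 16, 33, 11 and 3, and all 4 medians stayed above 0 (0.483, 0.909, 0.764 and 0.475). Of 9 tested growth genes 5 were higher. Thor, the translation inhibitor 4E-BP, stood at 9.67, 54, 33.5 and 21.2 CPM against 129, 287 and 306 CPM (7.76-fold, log2 2.96 ± 0.50 SE, adjusted p = 0.0016), and Nph, a nucleoplasmin family chaperone, at 137, 180, 152 and 136 CPM against 796, 720 and 726 CPM (4.94-fold, log2 2.30 ± 0.28 SE, adjusted p = 0.000253). In glycolysis 4 of 10 tested genes were higher and 1 lower, 2 being higher without wasp 3, with Tpi 6.41-fold higher at 2.12 to 29 CPM against 120 ± 4.87 CPM (SD, n = 3) and Gapdh2 4.34-fold higher at 136 to 222 CPM against 720 to 818 CPM. Lysosomal and autophagy genes were lower in 5 of 14 and higher in 1, 3 being lower without any 1 of the wasp libraries or unwounded 1 and 8 with upper-quartile scaling, with the cathepsin L gene Cp1 4.17-fold lower at 1396 to 3210 CPM against 415 to 698 CPM.

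**Figure D4:**
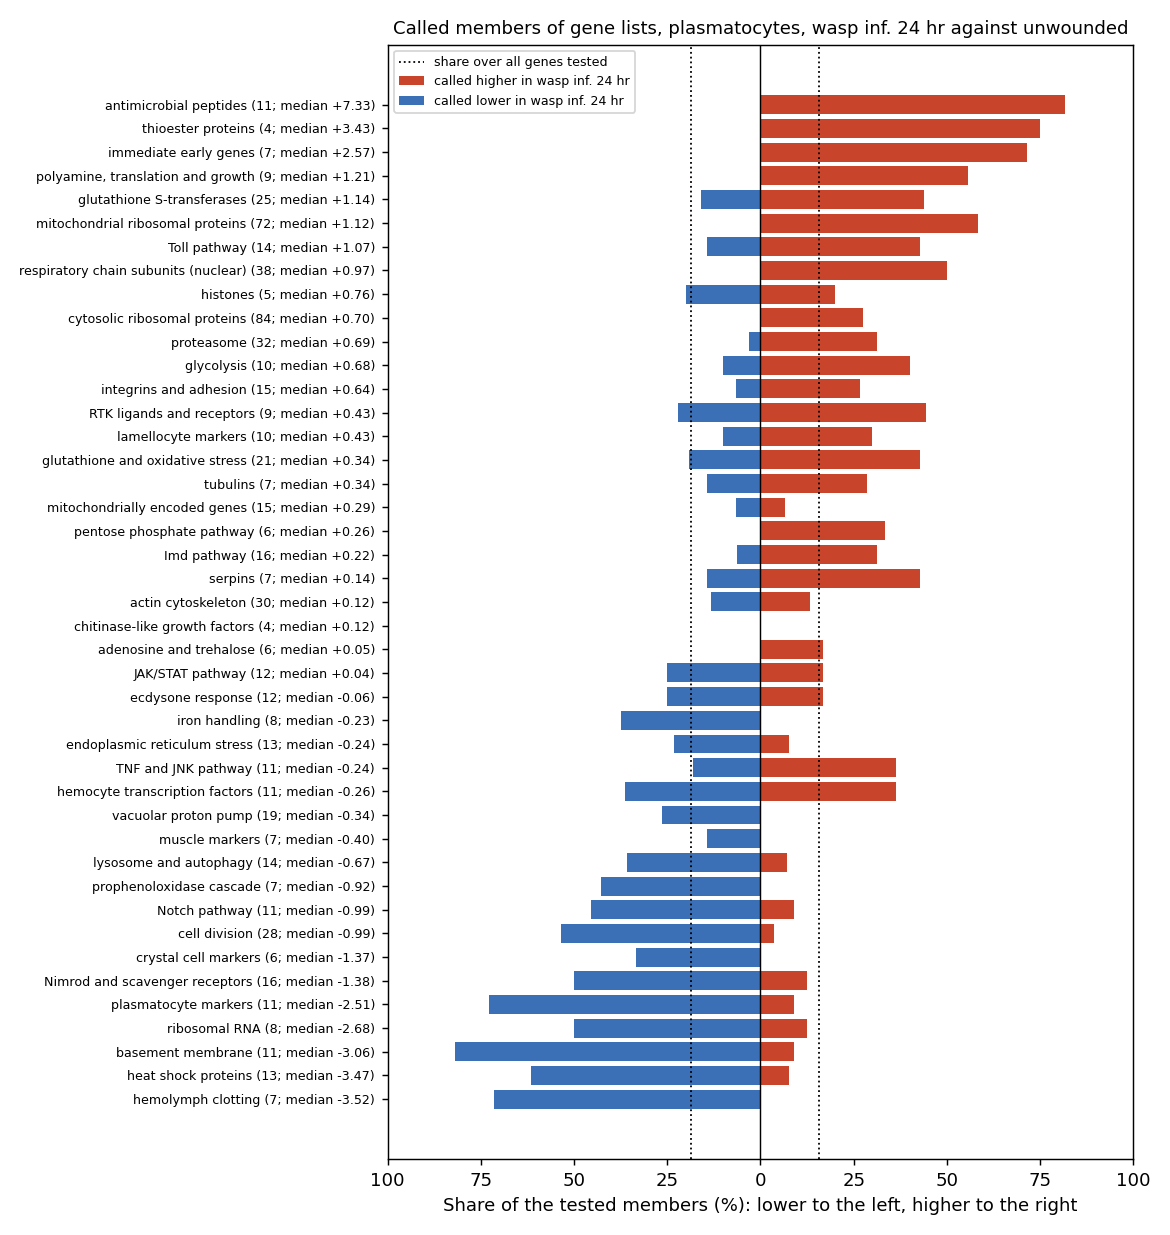
Share of the tested genes of each list called higher and called lower in wasp libraries, in percent, with the shares over all 6486 tested genes (15.8% higher, 18.5% lower) as dotted lines. Antimicrobial peptides (9 of 11 higher), basement membrane (9 of 11 lower) and clotting (5 of 7 lower) lie far from the dotted lines. Some of the peptides passed the low-count filter only through the wasp libraries, so that no lower call was possible for them.

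Several of these differences were followed into the single plasmatocyte clusters. In PM1, PM2, PM3, PM4 and PM5, the 5 clusters that had at least 10 cells in 2 or more libraries of each group, CecC differed by log2 6.10 to 8.36, Tep1 by 3.28 to 7.06, puc by 3.40 to 3.79 and LamC by 3.41 to 4.30. Hml differed by -1.81 in PM3, by -4.58 in PM4 and by -2.89 to -2.62 in the other 3 clusters. Pxn likewise differed least in PM3 (-2.79) and most in PM4 (-7.47). CG8501 and CG4829 had the same order, at -3.43 in PM3 against -9.35 in PM4 and at -2.96 against -8.32. Not every gene kept 1 direction: kn differed by -0.55 in PM3 and by 2.14 to 5.24 in the other 4 clusters, and Drs by 1.21 and 4.77 in PM1 and PM3 and by -1.35 to -0.11 in PM2, PM4 and PM5. These values are means over libraries of log2(CPM + 1) and were not tested. Only libraries with at least 10 cells of a cluster entered, so that the clusters rest on different libraries. PM1 used every library, PM3 unwounded 1 to 3 with wasp 2 and 3, and PM4 unwounded 2 and 3 with wasp 2 and 3.

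Plasmatocytes were finally compared with LM1, which the paper proposes is a lamellocyte intermediate. It had at least 10 cells in each of the 7 libraries (1046 cells, 10 of them in unwounded 4 and 68 to 334 in the others). The plasmatocyte markers summed to 26500 to 37000 CPM in LM1 of unwounded and to 3780 to 4080 CPM in LM1 of wasp libraries. The lamellocyte markers summed to 1100 to 3950 CPM against 4270 to 6920 CPM (these sums carry no TMM factor). The cells under the LM1 label may thus differ between the groups, which was not tested. A term for the difference between both cell classes in their response to the condition, with library as a block, called 221 of 6126 tested genes (3.61%), 92 higher (1.5%) and 129 lower (2.11%) in plasmatocytes. Of these, 5 and 13 kept their call with either technology as the only reference. CecC, Tep1, puc, LamC, Hml, Pxn, Ppn and LanB2 were not called in this term, so that their differences were not shown to be particular to plasmatocytes. The CPM of single genes in this comparison carry TMM factors fitted anew on the plasmatocyte and LM1 sums, and so differ somewhat from those above.

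Among the 10 genes with the largest differences toward LM1 were 3 of the lamellocyte marker list, betaTub60D, alphaTub85E and PPO3, whereas the marker atilla was not called in this term. betaTub60D was at 14.3 to 39.1 CPM in wasp plasmatocytes but at 1240, 836 and 2500 CPM in LM1 of wasp 1 to 3, from 0 to 13.1 CPM in LM1 of unwounded libraries (log2 -5.37 ± 0.53 SE for plasmatocytes less LM1, adjusted p = 2.31e-13). alphaTub85E stood at 41.7 to 141 CPM in unwounded and at 9 to 33.4 CPM in wasp plasmatocytes, but at 107 to 289 CPM and at 335 to 639 CPM in LM1 (log2 -3.22 ± 0.28 SE, adjusted p = 7.85e-16). PPO3 stood at 10.4 to 144 CPM in unwounded LM1 and at 408, 207 and 334 CPM in wasp LM1 (log2 -2.96 ± 0.48 SE, adjusted p = 9.3e-06), a call lost against 10X Chromium alone. axed, required for axon degeneration, stood at 15.7 to 45 CPM in unwounded and at 1.8 to 8.06 CPM in wasp plasmatocytes, but at 0 to 56.2 CPM and at 57.2 to 126 CPM in LM1. In the other direction, Tep4 (log2 2.24 ± 0.29 SE, adjusted p = 1.28e-08) and Ance, an angiotensin-converting enzyme homolog (log2 2.15 ± 0.29 SE, adjusted p = 1.09e-07), rose in plasmatocytes more than in LM1. Tep4 in LM1 was at 0 to 373 CPM in unwounded and at 191 to 316 CPM in wasp libraries, and Ance at 48.1 to 375 CPM and at 425 to 551 CPM, while in plasmatocytes Ance rose from 217 to 384 CPM to 1910 to 3110 CPM. kar, a monocarboxylate transporter family member, was lower in wasp libraries in both classes, at 34.4 to 125 CPM against 4.5 to 14.3 CPM in plasmatocytes and at 35.2 to 155 CPM against 0 to 3.24 CPM in LM1 (log2 2.07 ± 0.47 SE, adjusted p = 0.00241), a call lost against inDrops alone and without wasp 2.

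**Figure D5:**
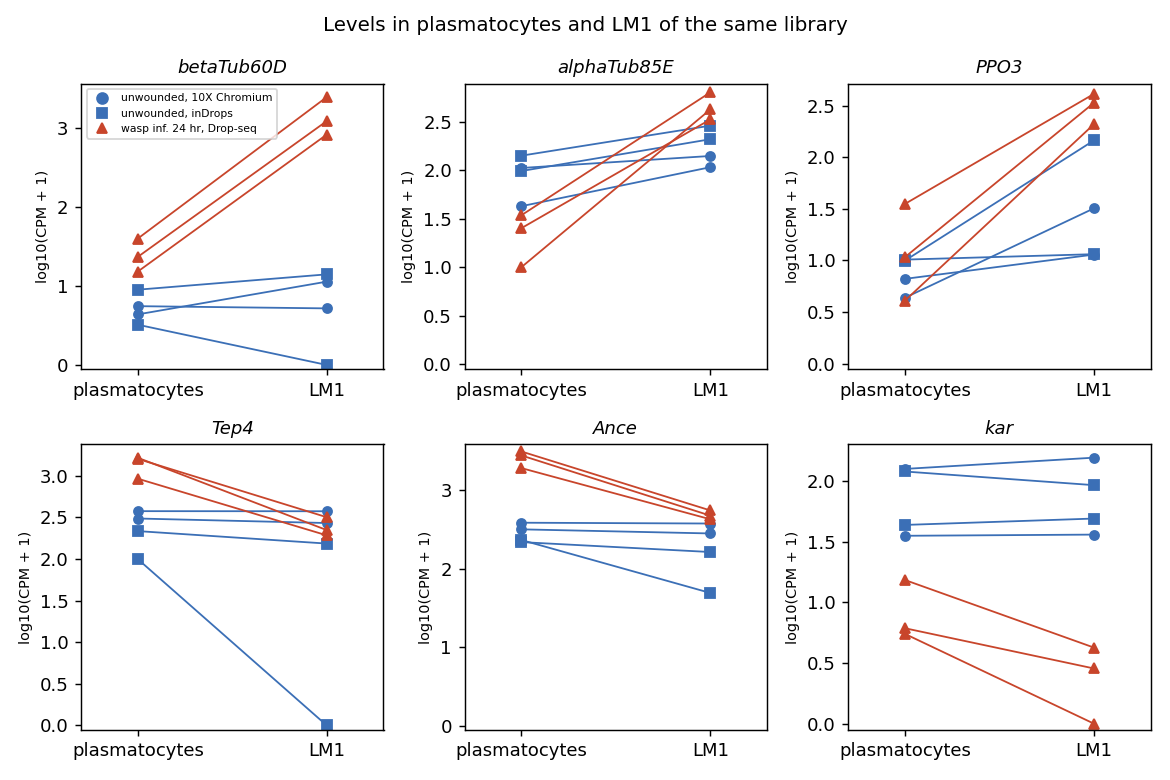
Levels of betaTub60D, alphaTub85E, PPO3, Tep4, Ance and kar in plasmatocytes and in LM1 cells, 1 point per library and class on a log10(CPM + 1) axis, with lines joining the classes of a library. betaTub60D stands at 836 to 2500 CPM in LM1 of the wasp libraries and at no more than 39.1 CPM in all other points, while Tep4 and Ance are highest in wasp plasmatocytes.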

How the data were processed

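Single-cell RNA sequencing of pooled larval hemocytes was analysed from the merged table that the authors deposited, which holds whole UMI counts per gene and cell from Drop-seq, 10X Chromium and inDrops libraries, each technology aligned by its own pipeline, after the authors' filter on cells. Cluster names are those of the authors' deposited annotation. No doublet caller was run here. Columns belonging to no listed sample numbered 0. Counts of PM1 to PM12 cells were summed per library, and genes with UMIs in all 3 technologies were tested with edgeR 4.0.16 (TMM, filterByExpr, quasi-likelihood test, Benjamini-Hochberg adjustment, threshold 0.05) in R 4.3.3, without covariates. Plasmatocytes were compared with LM1 in 1 model with library as a block. The fit was tested on simulated data. Alternatives used DESeq2 1.42.0, limma 3.58.1, other scalings, filters, cell subsets, single technologies, a replicate block and leaving out each library. The cells and gene lists were chosen with earlier results of these data known. Named genes were list members with the largest gap or named in the study's text, the 15 called genes per direction with the largest gap (at least 10 UMIs per technology, a pseudocount of 1 CPM), and the 10 per direction of the LM1 comparison with the largest difference. A few others were chosen after their values were seen (kn, Egfr, NimC4, vri, Lsp1beta, bsk, hep, egr and Socs36E). Positions are those of the Ensembl annotation of BDGP6. Sequences were not used here. Per-cluster and wounded values were not tested.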

Additional observations from a re-analysis of the deposited data

Results flagged for a closer look

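Of 138 genes with printed values, 13 had 1 unwounded library far from the other 3 by Dixon's criterion at 95%, which chance gives in about 1 of 20 groups. The library was unwounded 3 for pirk (24.6 CPM), upd3 (3.79 CPM), NimB2 (86.5 CPM), Hsp70Bb (344 CPM) and Lsp1beta (69.3 CPM). It was unwounded 1 for dl (58 CPM), Stat92E (326 CPM) and Ser (76.3 CPM), and unwounded 2 for eater (776 CPM) and Cdk1 (70.3 CPM). It was unwounded 4 for Tret1-1 (4.24 CPM), Egfr (2.12 CPM) and NimC4 (8.48 CPM). The wasp group of 3 was not examined this way.

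The response to the condition differed between plasmatocytes and LM1 cells in 20 named genes, by edgeR's test of the difference itself. The log2 difference of plasmatocytes less LM1 was 4.14 for CG16713, 3.28 for CG32816, 2.58 for Cyp4ac1, 2.38 for Ih and 2.36 for btsz. It was 2.24 for Tep4, 2.15 for Ance, 2.08 for alpha-Est1, 2.07 for kar and 2.04 for Prestin. In the other direction it was -5.37 for betaTub60D, -3.63 for axed, -3.39 for ATP8A, -3.22 for alphaTub85E and -2.96 for PPO3. It was -2.62 for Hph, -2.59 for CG44085, -2.44 for CG5050, -2.41 for exu and -2.37 for Gp150. LM1 of unwounded 4 rests on 10 cells, and the summed markers of LM1 differed between the groups. CG32816, Tep4, Ance, betaTub60D, axed, ATP8A, alphaTub85E and CG44085 kept their call in all 11 alternatives, and the other 12 genes lost it in at least 1. With 10X Chromium or inDrops alone as the reference, the call was lost for CG16713, Cyp4ac1, Ih, btsz, alpha-Est1, kar, Prestin, PPO3, Hph, CG5050, exu and Gp150. The difference was -0.42 for CG5050 and -0.92 for exu against inDrops alone, and -0.58 and -0.81 without unwounded 2.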

How the results depend on the processing

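Of the calls in plasmatocytes, 2226 in all (1025 higher, 1201 lower), PM1 cells alone gave 1302 (564 and 738), and leaving out each library gave 1109 to 2390 (559 to 1154 higher, 550 to 1236 lower). The cause was not tested. The fit with a replicate block gave 1872 calls, and same-numbered libraries deviated together with r of 0.02, -0.12 and 0.04, so that the numbers were not taken as pairs. The inDrops libraries alone gave 2954 calls, 10X Chromium alone 2061, limma 1810 and DESeq2's Wald test 2370. trol reversed, to 0.464 against 10X Chromium alone. For plasmatocytes less LM1 the 221 calls (92 and 129) became 85 (47 and 38) with 10X Chromium alone and 45 (9 and 36) with inDrops alone. Leaving out each library gave 120 to 235 (50 to 138 higher, 70 to 126 lower), for reasons that were not tested. Of the 122 called genes with printed values, 106 kept their call under every alternative with a value. Depth limits low genes most, as AttA, upd2, scb and Egfr rest on 0 to 3 unwounded UMIs.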

Other observations

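Other lists fixed for these cells moved little or both ways. Vacuolar proton pump subunits were lower in 5 of 19 tested genes and higher in none, a count that fell to 1, 1 and 2 without wasp 1, 2 and 3 and to 3 without unwounded 4. The ecdysone response had 2 of 12 genes higher and 3 lower (1, 0 and 0 lower without wasp 1, 2 and 3, and 1 lower without unwounded 1), with the nuclear receptor gene Eip78C at 0 to 1.07 CPM in unwounded and at 7.58, 11.5 and 19.1 CPM in wasp libraries (20.4-fold, log2 4.35 ± 0.59 SE, adjusted p = 0.000492). Of 7 tested serpins, inhibitors of proteases, 3 were higher and 1 lower. None of the 4 tested chitinase-like growth factors was called by edgeR. Actin cytoskeleton genes were higher in 4 and lower in 4 of 30, and 7, 0 and 2 were higher without wasp 1, 2 and 3, and 2 without unwounded 1.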
